A study of Mus musculus with 6 samples.

Results

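The genes described here had their lowest level in the CDH5+ cells that arise midway in the conversion of fibroblasts to blood. Of 19988 protein_coding genes on the arrays, 118 were chosen by their measured values, a share of 0.59%. Each had a CDH5+ mean at least 0.8 on the log2 scale below both the mean of untreated mouse embryonic fibroblasts (MEFs) and the mean of c-KIT+ cells, and its higher CDH5+ array lay below the lowest of the other 4 arrays. The dip itself is therefore how the genes were selected, and every difference between CDH5+ cells and the other groups is given below as a description.

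Gene expression had been read on 6 Mouse Exon 1.0 ST arrays, with 2 biological replicates for each of 3 groups. Untreated MEFs were fibroblasts from E14.5 embryos that received no factor. CDH5+ cells were sorted at day 8, and c-KIT+ cells at day 12, from MEFs transduced with lentiviruses for ERG, GATA2, LMO2, RUNX1c and SCL and kept in hematopoietic medium with cytokines. No mutant genotype is named for these arrays, so all cells are taken as wild type, although the study used knockout MEFs in other experiments. The MEFs had been freed, before infection, of cells that carry the blood or endothelial markers CD31, CD41, CD45 and c-KIT. How the replicate cultures were separated is not stated, so p-values measure only the spread between these samples, which may be technical. Both transduced groups are sorted populations rather than clones, and the day and the sorted marker differ together, so time and surface phenotype cannot be told apart.

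VE-cadherin, or CDH5, joins endothelial cells to each other, whereas c-KIT binds stem cell factor on early blood progenitors. In the embryo, blood arises from endothelial cells of the hemogenic type, which round up and give off progenitors that then divide. Dividing fibroblasts and blood progenitors both need steady supplies of tRNA synthetases, ribosomes, mitochondrial proteins and chaperones, and genes of these kinds are active in nearly every cell.

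The labels were checked against marker genes. Cdh5 was at 5.26 and 5.01 on the log2 scale in untreated MEFs (replicates 1 and 2), 10.16 and 10.95 in CDH5+ cells and 7.20 and 7.49 in c-KIT+ cells. Kit was at 4.54 and 4.73, 6.98 and 7.30, and 8.19 and 8.33 in the same order. Of 11 endothelial markers, 11 lay above background in CDH5+ cells, 4 in c-KIT+ cells and 0 in untreated MEFs, where background is the 95th percentile of 799 olfactory receptor genes (5.94 to 6.03 over the arrays). Of 10 blood markers, 8 lay above it in CDH5+ cells, 9 in c-KIT+ cells and 1 in untreated MEFs. All 10 fibroblast markers had a mean above background in untreated MEFs and in CDH5+ cells, and 7 of the 10 did in c-KIT+ cells. Their median was 9.51 and 7.42 in CDH5+ replicates 1 and 2, and 7.27 and 7.33 in c-KIT+ replicates 1 and 2. In CDH5+ replicate 2, however, Pdgfra (5.29), Pdgfrb (5.56) and Lum (5.66) were below background. The untreated arrays also differed, with a fibroblast marker median of 10.84 in replicate 1 and 9.48 in replicate 2. Some markers of other cell types differed between the untreated replicates too, while others in the same lists differed less. In replicate 1 and replicate 2 respectively, the keratin genes Krt18 and Krt19 of epithelia were at 5.06 and 8.69 and at 3.99 and 7.30, and the muscle actin gene Acta1 at 5.93 and 8.55. The mesothelial Msln was at 4.50 and 6.62, the adipocyte hormone Adipoq at 7.84 and 3.76, and Lum, a proteoglycan of fibroblasts, at 9.27 and 3.91. By contrast, Krt14 was at 5.62 and 5.43, Des of muscle at 6.67 and 6.50 and the mesothelial Wt1 at 5.82 and 5.39. List medians in untreated replicates 1 and 2 were 5.34 and 5.75 (epithelial), 5.59 and 5.96 (skeletal muscle), 4.85 and 5.28 (mesothelial) and 7.09 and 5.95 (adipocyte). No gene of the 8 marker lists was among the 118, and the part of these cell types in the values of the set was not tested.

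The arrays within a group moved with the dip. CDH5+ replicate 2 was below replicate 1 in 97 of the 118 genes (82.2%, against 61.2% of protein_coding genes) and the median of replicate 2 minus replicate 1 was -0.45 on the log2 scale. Untreated replicate 2 was above replicate 1 in 83 (70.3%, against 54.6%). Without CDH5+ replicate 2 the rule found 125 genes, of which 46 were among the 118, and without untreated replicate 2 it found 113, of which 66 were. Removing the other array of either pair widened the set instead, to 627 genes without CDH5+ replicate 1 and 547 without untreated replicate 1. Which genes make the set thus rests on single arrays, while the values below hold for the arrays as deposited. In such bulk samples, fewer cells of a type and less RNA per cell cannot be told apart.

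The 118 genes were a mixture of genes measured well and genes measured poorly. In both untreated MEFs and c-KIT+ cells, 66 (55.9%) lay above background, against 39.9% of protein_coding genes. Another 9 lay above it in 1 of these groups and 43 in neither. Because the rule asks for higher means in these groups than in CDH5+ cells, the higher share follows in part from the selection. Of the 66, 39 stayed above background in CDH5+ cells as well. A deposited gene value averages its probe sets, each of which reads a stretch of exon, and the 118 rested on a median of 4 probe sets against 10 for protein_coding genes. A single probe set carried 37 of them (31.4%, against 7.81%), and it carried each of the 11 genes with the widest dip. Among these 11 were Xlr, a lymphocyte-regulated gene on the X chromosome, at 2.27 and 2.29 in CDH5+ cells, and Zfp59, a zinc finger gene, at 2.73 and 1.54, both far below background. The rest of the 11 were Rpl29, Rpl7a-ps8, the clone RP24-242F4.9, the trace amine receptor gene Taar7b, D130062J21Rik and the predicted genes Gm9938, Gm10490, Gm3468 and Gm10704, with a smaller difference of 1.42 to 1.82. Fam58b, Gm14862, Olfr1351, 4930535I16Rik, Olfr1458 and Rdh14, a retinol dehydrogenase, followed with 1.35, 1.30, 1.27, 1.16, 1.11 and 1.10. On 4 or more probe sets there were 63 genes, and 53 of these lay above background in untreated MEFs and c-KIT+ cells.

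**Figure D1:**
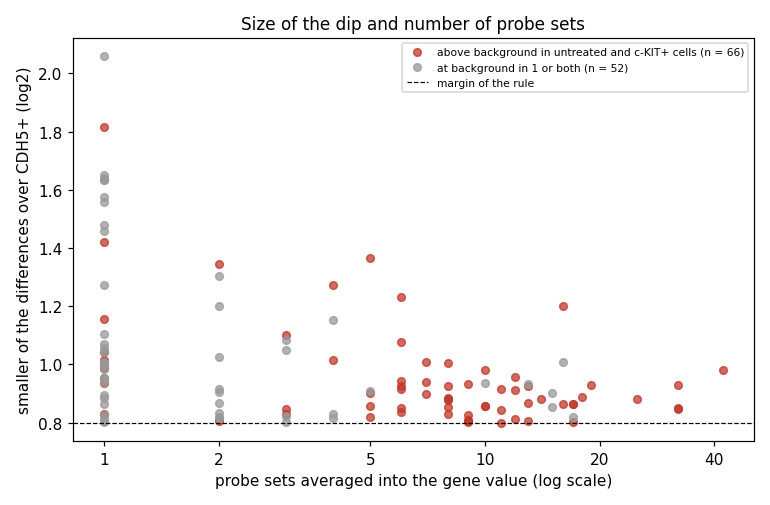
Each point is 1 of the 118 genes, with the number of probe sets averaged into its value on a log axis and the smaller of its differences over CDH5+ cells on the log2 scale. The 11 widest dips all sit at 1 probe set, and genes on many probe sets lie closer to the margin of 0.8.

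Deposited probe set values gave a closer view of the same arrays. For 96 of the genes there were probe sets annotated to the symbol, and the mean over all of them was lowest in CDH5+ cells in 94. That mean met the margin of 0.8 in 39 and missed it in 57. A median of 84.6% of a gene's annotated probe sets had their lowest mean in CDH5+ cells, against 39.2% of all annotated probe sets. Gene values average such probe sets on the same arrays, so these counts and the higher share follow in part from the selection. Rpl29, a protein of the large ribosomal subunit, shows how far a gene value can depart from its exons. Its gene value, from 1 probe set, was 7.16 and 9.96 in untreated MEFs, 7.08 and 6.40 in CDH5+ cells and 9.29 and 9.59 in c-KIT+ cells, but the mean over its 8 annotated probe sets dipped by only 0.06. Pgk1, the glycolytic phosphoglycerate kinase, likewise rested on 1 probe set, at 4.29 and 5.09 in CDH5+ cells, while the mean over its 25 annotated probe sets was 10.45 and 10.41 there and was not lowest in CDH5+ cells.

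To show the DNA from which some of these genes are transcribed, RefSeq promoter windows (GRCm38.p6, 250 bases before the start site and 50 after) are printed for 4 of them, each an example of a group described below. Gcnt4, at chr13:96924094-96924393 on the plus strand, was the only gene of the set to pass the test that the selection did not use. Thap2, at chr10:115384386-115384685 on the minus strand, had narrow replicates in all groups. Iars, at chr13:49681880-49682179 on the plus strand, stands for the tRNA synthetases, and Ndufaf5, at chr2:140170396-140170695 on the plus strand, for the mitochondrial genes. Capitals mark GGAAGT, the core bound by ETS factors such as ERG, in Gcnt4. They mark AAGATGGC, a YY1 sequence, read on the opposite strand in Thap2, TGATGNAA, the amino acid response element, also on the opposite strand in Iars, and 2 overlapping matches of GCATGCGC, the NRF1 sequence, in Ndufaf5.
Gcnt4: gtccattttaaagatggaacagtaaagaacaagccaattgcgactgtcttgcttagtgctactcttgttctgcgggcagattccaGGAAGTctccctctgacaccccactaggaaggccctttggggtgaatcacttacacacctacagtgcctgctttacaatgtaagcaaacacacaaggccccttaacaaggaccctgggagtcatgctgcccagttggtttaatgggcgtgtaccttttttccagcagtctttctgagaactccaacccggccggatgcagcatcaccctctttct
Thap2: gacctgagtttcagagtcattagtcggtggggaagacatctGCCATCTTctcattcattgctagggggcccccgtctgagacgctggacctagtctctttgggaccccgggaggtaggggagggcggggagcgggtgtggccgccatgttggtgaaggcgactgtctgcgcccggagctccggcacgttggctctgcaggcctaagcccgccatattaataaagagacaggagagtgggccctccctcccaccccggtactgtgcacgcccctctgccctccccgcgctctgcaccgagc
Iars: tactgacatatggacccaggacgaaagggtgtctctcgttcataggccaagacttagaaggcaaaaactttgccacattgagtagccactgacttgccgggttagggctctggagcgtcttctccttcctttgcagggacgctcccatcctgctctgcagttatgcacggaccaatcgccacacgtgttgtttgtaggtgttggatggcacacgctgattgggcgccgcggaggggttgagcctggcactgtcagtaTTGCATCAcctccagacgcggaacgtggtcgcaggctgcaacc
Ndufaf5: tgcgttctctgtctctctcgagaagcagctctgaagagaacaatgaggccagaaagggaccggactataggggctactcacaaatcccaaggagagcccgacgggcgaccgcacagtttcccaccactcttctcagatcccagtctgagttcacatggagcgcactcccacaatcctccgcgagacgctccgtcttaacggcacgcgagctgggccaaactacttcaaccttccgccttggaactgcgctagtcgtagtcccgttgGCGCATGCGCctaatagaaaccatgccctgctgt

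These letters were searched on both strands of the windows of 82 of the genes and of 27025 genes in all. GGAAGT was in 23.2% of the windows of the set and in 24.1% of all windows. The GATA sequence AGATAA was in 4.88% against 11.4%, the RUNX sequence TGTGGT in 14.6% against 16.9%, and an E-box (CAGATG or CAGCTG, of the kind bound by SCL) in 18.3% against 30.4%. CCAAT was in 48.8% against 37.9%, and the GC box GGGCGG in 39.0% against 35.9%. GCATGCGC was in 6.10% against 2.80%, AAGATGGC in 6.10% against 2.88% and TGATGNAA in 7.32% against 4.06%, and these last 3 were added after the members were known. The shares were not tested, and a match is a description of the letters and not a binding site.

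Genes that charge and process tRNA and build proteins gave 14 of the 118, of which 9 lay above background in untreated MEFs and c-KIT+ cells. The cytoplasmic leucyl-tRNA synthetase Lars, averaged over 42 probe sets, was at 8.70 and 9.96 in untreated MEFs, 8.47 and 8.02 in CDH5+ cells and 9.20 and 9.25 in c-KIT+ cells. The isoleucyl-tRNA synthetase Iars, whose promoter is shown above, was at 8.23 and 9.30, 7.78 and 7.58, and 8.54 and 8.59. Aimp1, a scaffold protein that holds such enzymes in the multi-synthetase complex, was at 8.63 and 9.73, 8.61 and 8.04, and 9.24 and 9.48. In all 3 genes the untreated arrays lay over 1 apart and the c-KIT+ arrays much closer together.

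Other members of this group act on tRNA or on the ribosome's partners. Pop4, a subunit shared by RNase P and RNase MRP, which cut tRNA and ribosomal RNA precursors, was at 7.27 and 8.30, 7.06 and 6.50, and 7.75 and 7.99. Rpp40, another RNase P subunit, was at 4.72 and 5.38, 4.26 and 3.98, and 5.36 and 5.27, below background on every array. Thumpd1, an adaptor for acetylation of tRNA, was at 6.88 and 7.80, 6.30 and 6.23, and 7.43 and 7.58. N6amt2, now named Eef1akmt1, encodes a methyltransferase of the elongation factor eEF1A. Its values were 7.77 and 8.86, 7.61 and 6.29, and 8.38 and 8.67, so that CDH5+ replicate 2 alone stood far below the rest. Srp9, a subunit of the signal recognition particle that guides nascent proteins to the ER, was at 7.91 and 8.65, 7.59 and 7.26, and 8.18 and 8.32. Tprkb, a subunit of the KEOPS complex that modifies tRNA, had values of 6.22 and 6.23 in untreated MEFs, 5.27 and 4.90 in CDH5+ cells and 5.91 and 5.98 in c-KIT+ cells. Eif3m, of the initiation factor eIF3, rested on 2 probe sets and ranged from 3.75 to 6.10. Over its 17 annotated probe sets the mean was much higher, at 8.36 and 9.27, 8.53 and 7.89, and 9.23 and 9.34, and there CDH5+ replicate 1 was above untreated replicate 1. The ribosomal Rpl39l, a paralog of Rpl39, and the copies Rpl7a-ps8 and Rpl28-ps4 share sequence with other ribosomal genes, so their values are uncertain. Over the group of 14, CDH5+ replicate 2 was below replicate 1 in 14 and untreated replicate 2 above replicate 1 in 14.

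**Figure D2:**
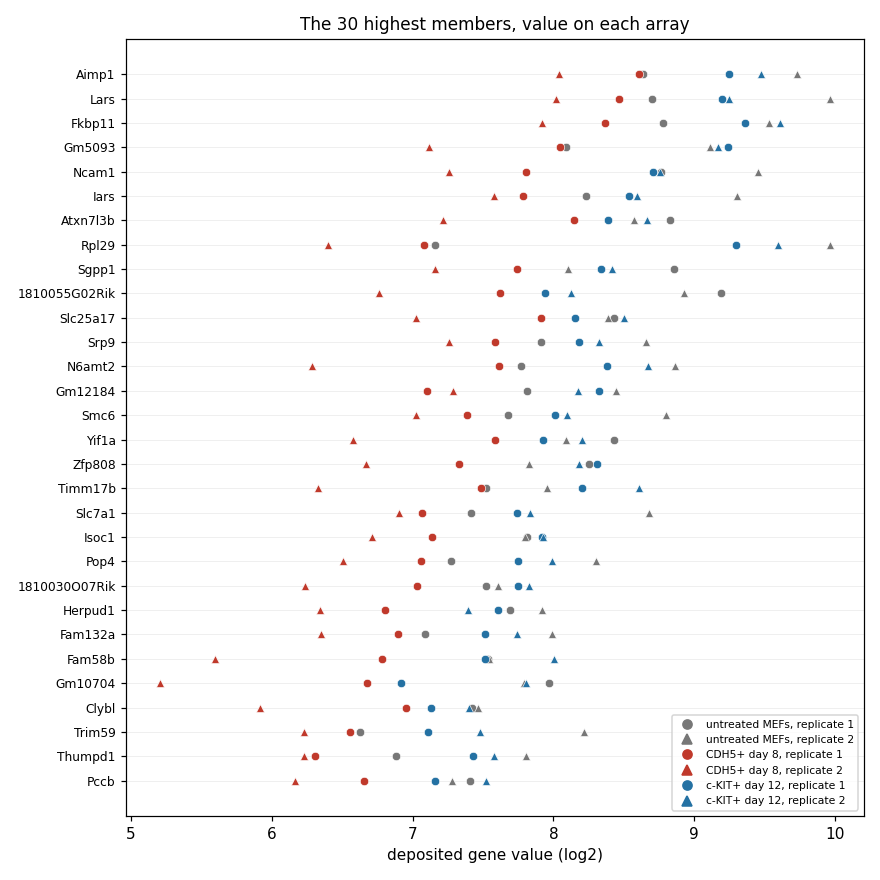
Deposited log2 values on each of the 6 arrays for the 30 genes of the set with the highest mean among those above background, with colour for the group and shape for the replicate. In each row both CDH5+ points lie to the left of the other 4, and CDH5+ replicate 2 is mostly the lower of the pair.

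Of the 118 genes, 13 act in mitochondria, and 12 of them lay above background. Transcription and translation of the mitochondrial genome were represented by Tfb1m, Tefm, Gatc and Mrpl27. Tfb1m, which methylates mitochondrial ribosomal RNA, was at 6.20 and 6.21 in untreated MEFs, 5.56 and 5.08 in CDH5+ cells and 6.76 and 6.78 in c-KIT+ cells. Tefm, the elongation factor of the mitochondrial polymerase, was at 6.60 and 6.88, 6.32 and 5.55, and 7.02 and 7.20. Gatc, a subunit of the amidotransferase that completes mitochondrial glutaminyl-tRNA, was at 7.11 and 7.24, 5.66 and 6.14, and 7.13 and 7.48. By the smaller of its differences it had the widest dip of the 13, 1.27 below untreated MEFs and 1.41 below c-KIT+ cells, and it was the only one in which CDH5+ replicate 1 was the lower. Mrpl27, of the mitochondrial ribosome, rested on 1 probe set whose values ran from 3.84 to 5.61, below background. The mean over its 2 annotated probe sets was above background on every array, at 7.39 and 8.43, 7.12 and 6.24, and 8.19 and 8.20.

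Genes that assemble the respiratory chain came next. Ndufaf5 and Ndufaf7 modify subunits of complex I during assembly, and Sco1 delivers copper to cytochrome c oxidase. Ndufaf5 was at 6.60 and 7.01, 6.20 and 5.68, and 6.67 and 6.93. Ndufaf7 had an untreated mean of 7.09 ± 0.13 (SD, n = 2) and was at 6.63 and 5.79 in CDH5+ cells and 7.08 and 7.45 in c-KIT+ cells. Sco1 was at 6.26 and 6.55, 5.78 and 5.41, and 6.28 and 6.58. In each of these genes the untreated and c-KIT+ arrays overlapped and both CDH5+ arrays lay below them.

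Import, membrane lipid and metabolic enzymes completed the mitochondrial genes. Timm17b, a subunit of the inner membrane import channel, was at 7.52 and 7.95, 7.49 and 6.33, and 8.20 and 8.61, so that CDH5+ replicate 1 all but met untreated replicate 1. Crls1, the cardiolipin synthase, was at 6.76 and 7.19, 6.41 and 5.93, and 7.05 and 7.01. Pccb, the beta chain of propionyl-CoA carboxylase, dipped in all of its 19 annotated probe sets and was at 7.41 and 7.28, 6.66 and 6.17, and 7.16 and 7.52. Mthfd2, which works in mitochondrial folate metabolism, was at 6.63 and 7.50, 6.19 and 5.68, and 6.65 and 6.83. Clybl, a lyase of citramalyl-CoA, and 9430016H08Rik, now named Maip1, an inner membrane protein, dipped by at least 0.83 and 0.81. Over the 13 genes the median difference was 0.89 between untreated MEFs and CDH5+ cells and 1.04 between c-KIT+ and CDH5+ cells.

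A further 9 genes act in the ER, the Golgi or protein folding. Fkbp11, a prolyl isomerase of the secretory pathway, was at 8.77 and 9.53 in untreated MEFs, 8.37 and 7.92 in CDH5+ cells and 9.36 and 9.61 in c-KIT+ cells. Herpud1, which takes part in degradation of proteins from the ER, was at 7.69 and 7.92, 6.80 and 6.35, and 7.61 and 7.40, and all of its 11 annotated probe sets were lowest in CDH5+ cells. Bag2, a cochaperone of Hsp70, was at 6.56 and 7.74, 6.17 and 5.75, and 6.90 and 7.04. Yif1a, of transport between ER and Golgi, was at 8.43 and 8.09, 7.59 and 6.58, and 7.92 and 8.20. Sgpp1, which removes the phosphate of sphingosine-1-phosphate, was at 8.85 and 8.11, 7.74 and 7.16, and 8.33 and 8.42. In each of these 5 genes the untreated and c-KIT+ means were at most 0.33 apart, while Gcnt4, described below, kept a wider difference. Zdhhc2, a palmitoyltransferase, Hspa1l, an Hsp70 of the testis, and Trim13, a ubiquitin ligase, dipped by at least 0.86, 0.82 and 1.15, and the last 2 were below background.

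Nuclear proteins gave 17 genes, of which 11 lay above background. Thap2, a THAP zinc finger gene, was at 6.31 and 6.54 in untreated MEFs, 5.15 and 4.96 in CDH5+ cells and 6.26 and 6.31 in c-KIT+ cells, a gap of 1.11 between its higher CDH5+ array and the lowest of the others. E2f6, a repressor of the E2F family, was at 6.99 and 7.27, 6.16 and 5.74, and 6.76 and 7.02. Smc6, of a complex that keeps chromosomes intact during repair, was at 7.68 and 8.80, 7.39 and 7.02, and 8.01 and 8.09. Egr2, an immediate early transcription factor, spread widely, with 6.98 and 8.81 in untreated MEFs, 6.51 and 5.48 in CDH5+ cells and 6.72 and 6.88 in c-KIT+ cells. Cdc5l, a splicing protein, and Ipo11, an importin, were above background, and Anapc10, a subunit of the anaphase-promoting complex, was so only in c-KIT+ cells. Of 348 zinc finger proteins measured, 7 were in the set (2.01%, against 0.59% of protein_coding genes). These were Zfp39, Zfp59, Zfp114, Zfp455, Zfp459, Zfp808 and Zfp930, and among them only Zfp39 and Zfp808 lay above background. In 196 of the 341 outside the set (57.5%) the CDH5+ mean was lowest, against 39.5% of protein_coding genes outside the set.

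The largest group, 31 genes, acts at membranes, in signalling or in metabolism. Ncam1, the neural cell adhesion molecule, which fibroblasts also carry, was at 8.76 and 9.46 in untreated MEFs, 7.80 and 7.26 in CDH5+ cells and 8.71 and 8.76 in c-KIT+ cells, with 34 of its 42 annotated probe sets lowest in CDH5+ cells. Slc7a1, the transporter for arginine and lysine, was at 7.41 and 8.68, 7.06 and 6.90, and 7.74 and 7.83. Slc25a17, a carrier of the peroxisome, was at 8.43 and 8.39, 7.91 and 7.03, and 8.16 and 8.50. Isoc1 was at 7.81 and 7.80, 7.14 and 6.71, and 7.92 and 7.93. The gap between the higher CDH5+ array and the lowest of the other arrays was 0.90 in Ncam1 and 0.66 in Isoc1. The gene 2010012O05Rik, now named Borcs7, belongs to the complex that positions lysosomes and dipped by at least 0.86, and Stambp, an endosomal deubiquitinase, by at least 0.88. Other genes among the 30 highest, of various roles, were Gm5093, Gm12184, 1810030O07Rik, Fam132a (now C1qtnf12), Trim59 and Atxn7l3b, with a smaller difference of 1.02, 0.94, 0.93, 0.92, 0.90 and 0.85.

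The remaining 34 genes were mostly at background. They were 14 chemosensory receptors or their pseudogenes, 5 genes of restricted tissues and 15 predicted genes, clones and pseudogenes, of which 1, 0 and 5 lay above background. Olfactory receptors gave 8 of 792 measured (1.01%) and vomeronasal and taste receptors 3 of 213 (1.41%), against 0.59% of protein_coding genes. Of the 14 chemosensory genes 10 rested on 1 probe set, as did all 5 tissue-restricted genes, among them the hair keratin-associated Krtap6-1 and Krtap19-4 and Psmb11, a proteasome subunit of the thymus. Olfr243 was at 4.56 and 3.72 in untreated MEFs, 2.22 and 1.61 in CDH5+ cells and 2.94 and 2.51 in c-KIT+ cells. All 6 values are below the background level, the level of genes that these cells are not known to use.

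The comparison of c-KIT+ cells with untreated MEFs was not used to choose the genes, although it shares those arrays with the selection. It asks whether blood progenitors return to the fibroblast level. In limma's fit to all 26323 genes with Benjamini-Hochberg adjustment, 0 of the 118 were higher in c-KIT+ cells and 1 was lower, against 3.24% and 2.72% of all genes. At an unadjusted p under 0.05 the counts were 0 higher and 4 lower, against 11.2% and 9.85% of all genes. The median difference was 0.0018 over the set, against 0.05 over all genes, with 59 genes above 0 and 59 below. In 100 of the 118 (84.7%) it was within 0.5, against 64.6% of all genes. Because most members lie close to the margin on both sides, a small difference between these 2 groups follows in part from the rule, and a p above the threshold does not show equal levels.

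**Figure D3:**
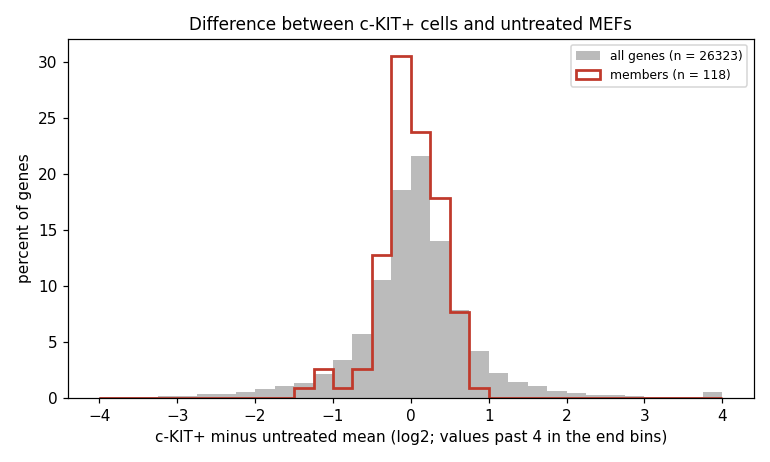
Percent of genes by the difference between the c-KIT+ and untreated means on the log2 scale, in bins of 0.25, for all 26323 genes (filled) and the 118 genes lowest in CDH5+ cells (line). The line is centred near 0, and 84.7% of the set is within 0.5 of it.

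The gene that passed was Gcnt4, a Golgi enzyme that starts branches on O-linked sugar chains. It was at 7.81 and 7.77 in untreated MEFs, 5.87 and 5.66 in CDH5+ cells and 6.64 and 6.78 in c-KIT+ cells, so that the 3 groups did not overlap and c-KIT+ cells stayed between the others. The difference of c-KIT+ cells from untreated MEFs was -1.08 (SE 0.20, limma adjusted p = 0.0368). All 7 of its annotated probe sets were lowest in CDH5+ cells. With the replicate number as a block the adjusted p was 0.0753, and with the median of annotated probe sets the difference was -0.62 (limma adjusted p = 0.266). Leaving out 1 array at a time, the adjusted p ran from 0.0464 to 0.262 and passed the threshold only without untreated replicate 2.

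The other genes with an unadjusted p under 0.05 were Olfr243, 1810055G02Rik and Krtap6-1. Olfr243 and Krtap6-1 were at background, and their limma adjusted p was 0.0972 and 0.165. 1810055G02Rik was at 9.19 and 8.93 in untreated MEFs, 7.62 and 6.77 in CDH5+ cells and 7.94 and 8.12 in c-KIT+ cells, a difference between c-KIT+ and untreated cells of -1.03 (SE 0.32, limma adjusted p = 0.145). Egr2 had a c-KIT+ mean lower than the untreated mean by a similar amount, -1.09, with an SE of 0.65 (limma adjusted p = 0.410). In the other direction Rpl29 stood at 0.88 (SE 0.87) and Timm17b at 0.67 (SE 0.42), neither past the threshold. Without untreated replicate 2, the fit called Rpl29 and Ankrd49, an ankyrin repeat gene, higher and Gcnt4 and Olfr243 lower, with limma adjusted p of 0.0304, 0.0456, 0.0464 and 0.0457.

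The contrasts that the selection used are given for scale only. CDH5+ cells against untreated MEFs passed at an adjusted p under 0.05 in 1 of the 118, Gcnt4, where 0.213% of all genes were called lower and 0.965% higher. c-KIT+ against CDH5+ cells passed in 0 of the 118, as in 0% of all genes in limma's fit, although 4205 genes, 91 of the set among them, had an unadjusted p under 0.05. The F-test over the groups passed in 3, Gcnt4, Thap2 and the clone RP24-242F4.9, where 3.3% of all genes passed. These counts support nothing, since they repeat the values that chose the genes. The mirrored rule, for genes highest in CDH5+ cells, found 195 protein_coding genes, of which 56 passed the F-test and 14.9% lay above background in untreated MEFs and c-KIT+ cells. Since the mirrored rule asks for lower means in those groups, the share of 14.9% follows in part from it. Applied to the other groups, the rule of the set found 759 genes lowest in untreated MEFs and 527 lowest in c-KIT+ cells.

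Reading the rule on 1 array per group and the outcome on the other arrays gave a check of the rule with separate arrays. It cannot check the set described above, because those genes were chosen on all 6 arrays. The 133 genes chosen on the arrays numbered 1 held 29 of that set. The 1236 genes chosen on the arrays numbered 2 held 100 of it. Chosen on the arrays numbered 1, 133 genes met the rule, and 60 of them (45.1%) were lowest in CDH5+ cells on the arrays numbered 2, against 47.6% of all protein_coding genes. Of these 133, 18 met the margin again (13.5%, against 6.18%). Chosen on the arrays numbered 2, 1236 genes met the rule, and 460 (37.2%) were lowest on the arrays numbered 1, against 28.2%. There 18 met the margin (1.46%, against 0.665%). These are the same 18 genes, since a gene that meets the margin on both sets of arrays is counted in either direction. For the margin, the directions therefore count a single overlap. A background filter was then set on the mean over all 6 arrays. It also used the arrays that were read, so the arrays were not fully separate for these counts. Among genes that passed it, the first count was 14 of 18 (77.8%, against 60.0%) and the second 352 of 964 (36.5%, against 30.6%). The margin was met again by 4 of these 18 (22.2%, against 10.4%) and 4 of these 964 (0.415%, against 0.194%), which are likewise the same 4 genes. Among all protein_coding genes the share lowest again was thus below that of all genes in 1 direction and above it in the other. No difference between these shares was tested.

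Pathways of the set were followed in the genes that it did not select, by counting those whose CDH5+ mean was the lowest of the group means. This held for 39.5% of the 19870 protein_coding genes outside the set. The lists of complexes were written because they hold a selected gene, so their counts describe these arrays only and were not tested. The multi-synthetase complex had 11 measured genes with 3 in the set, and in the other 8 the CDH5+ mean was lowest in 8. Eprs, which charges glutamate and proline, was at 9.55 and 10.14, 9.03 and 8.31, and 9.41 and 9.50, and missed the margin by little. Mars, the methionyl enzyme, was at 8.17 and 8.44, 7.59 and 7.25, and 7.87 and 8.03. In Rars, Dars, Aimp2 and Eef1e1 untreated replicate 1 lay below both CDH5+ arrays and was the lowest of the 6. Eef1e1, another scaffold protein of the complex, was at 7.17 and 9.37, 7.82 and 7.47, and 8.93 and 9.17. In Kars and Qars untreated replicate 1 lay between the CDH5+ arrays. The wider list of translation and tRNA charging had 35 genes, and of the 32 outside the set 27 had their lowest mean in CDH5+ cells. Over the 35 genes the median was -0.60 for CDH5+ minus untreated and 0.60 for c-KIT+ minus CDH5+, but in 11 of them untreated replicate 1 lay below both CDH5+ arrays. In limma's fit 0 of these 35 were called in either direction between c-KIT+ and untreated cells. Of all genes, 3.24% were called higher and 2.72% lower. With an unadjusted p under 0.05, 3 of the 35 were higher, against 11.2% of all genes, and 0 were lower, against 9.85%.

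**Figure D4:**
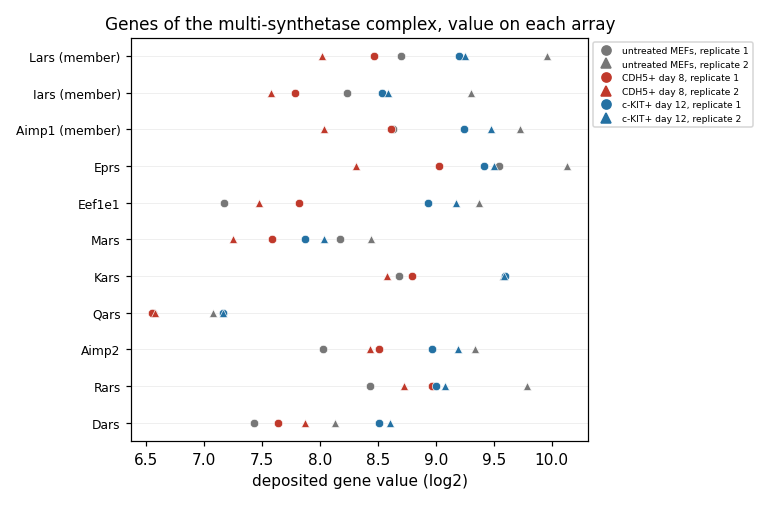
Deposited log2 values on each of the 6 arrays for the 11 measured genes of the multi-synthetase complex, ordered by the smaller difference over CDH5+ cells. In Lars, Iars, Aimp1, Eprs and Mars both CDH5+ points lie left of all others, in Kars and Qars untreated replicate 1 lies between the CDH5+ points, and in Rars, Dars, Aimp2 and Eef1e1 it is the lowest point of all.

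Mitochondrial lists differed among themselves. Outside the set, the CDH5+ mean was lowest in 60 of 72 mitochondrial ribosomal proteins, 26 of 32 assembly factors of the respiratory chain and 17 of 18 genes of mitochondrial tRNA charging. It was lowest in 28 of 51 genes of the respiratory chain itself, none of which was selected, and in 3 of 12 genes of mitochondrial transcription and rRNA methylation. Untreated replicate 1 lay below both CDH5+ arrays in 30 of all 73 mitochondrial ribosomal proteins and 26 of the 51 respiratory chain genes. The same held for 9 of 35 assembly factors and 2 of 19 tRNA charging genes, against 7223 of 19988 protein_coding genes. Ecsit, an assembly factor of complex I that missed the margin by little, was at 7.08 and 7.58, 6.64 and 6.44, and 7.12 and 7.56. Tfam, which packs mitochondrial DNA, was at 6.16 and 7.08, 6.43 and 5.92, and 7.12 and 7.28, with untreated replicate 1 between the CDH5+ arrays.

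In the 7 unselected genes of the signal recognition particle and its receptor the CDH5+ mean was lowest in 7, and it was lowest in 11 of 12 such subunits of eIF3. The proteasome had it lowest in 34 of 41, though its only gene in the set was the thymic Psmb11. In 18 of all 42 proteasome genes untreated replicate 1 lay below both CDH5+ arrays. This held for 4 of 13 eIF3 genes and 1 of 8 genes of the signal recognition particle. Among ribosomal proteins outside the set the CDH5+ mean was lowest in 49 of 89 (55.1%). The count was 6 of 9 for RNase P and MRP subunits and 1 of 3 for the KEOPS complex. In these lists untreated replicate 1 lay below both CDH5+ arrays in 53 of 93, 7 of 11 and 1 of 4 genes. Of these mitochondrial, translation and proteasome lists, limma called only 3 of 42 proteasome genes and 1 of 93 ribosomal proteins between c-KIT+ and untreated cells, all higher. Over all genes 3.24% were called higher. At limma's unadjusted p under 0.05, 15 of 73 mitochondrial ribosomal proteins and 7 of 35 assembly factors were higher, and 0 and 1 lower. By the same count 6 of 51 respiratory chain genes, 4 of 42 proteasome genes and 0 of 13 eIF3 genes were higher, and 0 lower. Over all genes the shares were 11.2% higher and 9.85% lower.

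Lists connected with growth varied. The CDH5+ mean was lowest in 28 of 41 genes of ribosome biogenesis and Myc targets, 17 of 25 of cholesterol synthesis and 19 of 30 unselected genes of nucleotide synthesis, the list that holds Mthfd2. It was lowest in 15 of 40 genes of DNA replication (37.5%) and 10 of 40 of mitosis (25%). Outside the set it was lowest in 39.5% of all protein_coding genes, close to the share for DNA replication. In 34 of the 41 genes of ribosome biogenesis, as in 34 of 40 of DNA replication and 39 of 40 of mitosis, untreated replicate 1 lay below both CDH5+ arrays. The median c-KIT+ minus untreated difference of DNA replication and mitosis was 1.25 and 1.52. At an adjusted p under 0.05 limma called 0 genes of either list, where 3.24% of all genes were called higher and 2.72% lower. With an unadjusted p under 0.05, 23 of 40 and 3 of 40 were higher, against 11.2% of all genes. Low shares came from interferon response genes, with 2 of 31, and from cytokines and chemokines, with 7 of 67. No difference between lists was tested.

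**Figure D5:**
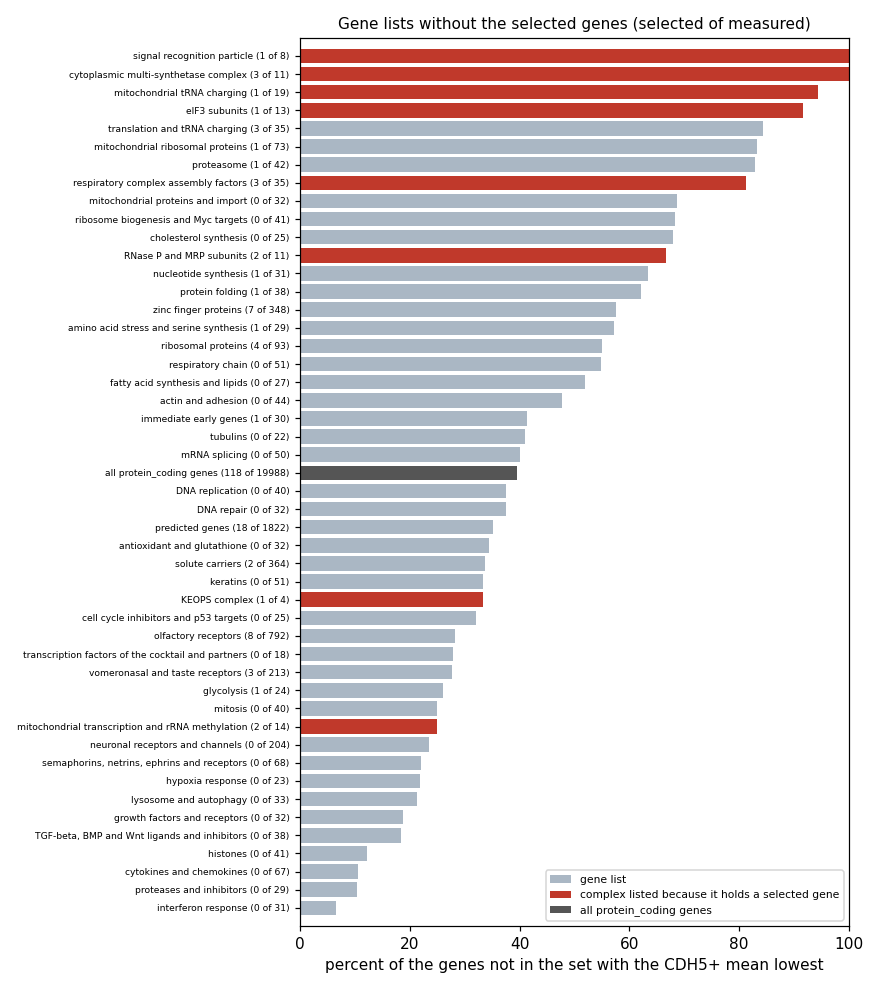
Percent of the genes outside the set whose CDH5+ mean is the lowest of the group means, for every gene list, with the number in the set of the number measured in brackets. The dark bar marks all protein_coding genes, at 39.5%, red bars mark complexes listed because they hold a selected gene, and the lists spread from 6.45% to 100%.

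Genes close to the margin differed little on either side of it. Just inside were Crls1, Fgfbp1, Josd1, Egr2 and Slc7a1, with a smaller difference of 0.80. Just outside, at 0.80 when rounded, were Kcna10, Psmc6, Aldh18a1, Tars and Gstm5. Tars, the threonyl-tRNA synthetase, was at 8.07 and 9.20, 7.46 and 7.17, and 7.97 and 8.26, and Psmc6, an ATPase of the proteasome, at 8.80 and 9.56, 8.63 and 8.14, and 9.08 and 9.29. Aldh18a1, which starts proline synthesis, was at 7.63 and 8.37, 6.86 and 6.67, and 7.45 and 7.67. With a margin of 0.6 the rule found 396 genes, and with a margin of 1 it found 39.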

How the data were processed

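RNA of untreated MEFs, of CDH5+ cells at day 8 and of c-KIT+ cells at day 12 was hybridised to Mouse Exon 1.0 ST arrays, 2 per group, which the study calls biological replicates. The authors deposited normalized log2 values for 26323 genes and for 1236087 probe sets, and these log2 values were used as deposited. Neither normalization, nor software, nor build is given in the sources used here, and how far the normalization evened out differences between arrays is unknown, and the number of arrays limits the precision. The number of probe sets averaged into a gene value was recovered from its decimals. Of the probe sets, 321091 are annotated to 1 gene symbol, 7796 to several and 907200 to none, and the former were averaged or their median taken per gene.

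In R 4.3.3, limma 3.58.1 was run on every gene, with 1 mean for each group over the 6 arrays, by a script tested on simulated data, and p-values were adjusted over all genes by the Benjamini-Hochberg method at 0.05. No gene was filtered out. With 3 groups of 2 arrays the fit has few residual degrees of freedom. Members, gene lists, role groups and promoter sequences were chosen with earlier results of these data known. Named are the 25 genes with the widest dip, the 30 highest above background, those at the margin, those past the test and those in a list, except that list members among receptors and predicted genes are mostly given by count. The lists of complexes, the role groups, the NRF1, YY1 and amino acid response sequences, and the genes Tfb1m, Tefm, Gatc, Ndufaf5, Ndufaf7, Sco1, Timm17b, Crls1, Stambp, Borcs7, Eprs, Mars, Eef1e1, Tfam and Ecsit were picked after their values were seen. Promoters are from RefSeq's GRCm38.p6 table. Alternatives were each array left out, quantile normalization, median centring, probe set medians, other margins, a background filter, all biotypes, 1 array per group, a replicate block, a variance trend, robust variances and 1 row per symbol, and, added after seeing the data, at least 4 probe sets.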

Additional observations from a re-analysis of the deposited data

How the results depend on the processing

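Both the set and the call between c-KIT+ and untreated cells depended on the processing. The rule found 75 genes after quantile normalization (69 of the 118), 257 with the median of annotated probe sets (45 of the 118), 396 and 39 at margins of 0.6 and 1, 66 with the background filter, 217 over all biotypes and 1236 on the arrays numbered 2 alone. A minimum of 4 probe sets, added after seeing the data, left 63. Leaving out 1 array at a time gave 113 to 627 genes. In limma's fit of c-KIT+ against untreated cells, leaving out 1 array called 0 to 2 of the 118 higher and 0 to 2 lower, and the median difference ran from -0.16 to 0.20. With the median of annotated probe sets 0 were lower. Gcnt4 lost its call in 7 of 14 settings. With the replicate number as a replicate block 0 were higher and 1 was lower, Olfr243 (limma adjusted p = 0.0440) in place of Gcnt4. The numbers were not shown to pair the arrays, since the differences between replicates correlated across genes at 0.12, -0.02 and -0.05 for the 3 pairs of groups. The cause of these changes was not tested.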
